A study of Mus musculus with 12 samples.

Results

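The data concern 9 genes for surface proteins through which macrophages and other antigen-presenting cells activate or restrain lymphocytes and neighbouring myeloid cells. They are Cd40, Cd80, Cd86 and Icosl, which costimulate, Cd274 and Pdcd1lg2, which inhibit, the ligand Cd200 with its receptor Cd200r1, and the activation marker Cd69. They were taken by name from the deposited read count tables, with each gene represented by the RefSeq transcript that had the highest total count, and 9 of 9 were found among 24445 genes. Messenger RNA was sequenced from bone marrow-derived macrophages of C57BL/6 mice, which are cells grown from marrow with L929-conditioned medium to supply M-CSF. Of the 12 libraries, 3 each came from KO cells with lipopolysaccharide (LPS), WT cells with LPS, untreated KO cells and untreated WT cells. LPS, an Escherichia coli product that signals through TLR4, was given at 10 ng/mL for 3 hours. Per the labels, KO mice lacked the histone H3 lysine methyltransferase DOT1L in myeloid cells and WT mice did not, and Lyz2 is named for both without a statement on Cre, on which exon was removed or on the age of the mice. The replicates are called biological, and nothing else ties a library to an animal, so p-values measure the spread between these libraries. KO and WT below stand for libraries with those labels.

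A T cell needs a costimulatory signal beside its antigen receptor signal. CD80 and CD86 on the presenting cell give it through CD28 and are bound more tightly by the inhibitory receptor CTLA-4, and ICOS ligand engages ICOS. CD40 is a receptor of the TNF receptor family that is triggered by CD40 ligand on T cells, and NF-kB signalling in macrophages and dendritic cells raises its expression. PD-L1 (Cd274) and PD-L2 (Pdcd1lg2) inhibit T cells through PD-1, and interferons and NF-kB induce PD-L1 in many cells. CD200 restrains myeloid cells through CD200R1, whose adaptor proteins DOK1 and DOK2 dampen Ras signalling. CD69 is a C-type lectin that appears on leukocytes early after activation and that lowers the surface level of the sphingosine phosphate receptor S1PR1.

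The members lie on 5 chromosomes of the mm10 genome, and several are neighbours. Cd274 (chr19:29362107-29388095) and Pdcd1lg2 (chr19:29410919-29472927) are 22.8 kb apart. Cd200 (chr16:45382111-45409060) and Cd200r1 (chr16:44765736-44794977) are 0.59 Mb apart on the chromosome that also carries Cd80 (chr16:38457430-38495958) and Cd86 (chr16:36568956-36666158), which are 1.79 Mb from each other. Cd40 is at chr2:165055614-165071654, Cd69 at chr6:129267324-129275375 and Icosl at chr10:78069368-78079525, which is 2.68 Mb from Dot1l. All are protein-coding genes, and their counts are given per RefSeq transcript.

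Promoter sequences of RefSeq, build GRCm38.p6, were at hand for 5 of the 9 members, Cd80, Cd274, Pdcd1lg2, Icosl and Cd200, as windows from 250 bases before to 50 bases after the annotated start. Shown are those of the 2 neighbours on chromosome 19, of which Pdcd1lg2 had the lowest level of all members in every group, and that of Cd200, the member with the smallest p in the test of the difference between the genotypes' LPS responses. The Cd274 window surrounds a start inside the span of the gene. Capitals mark a match to the kB motif of NF-kB.
Cd274 (chr19:29367188-29367487, plus strand): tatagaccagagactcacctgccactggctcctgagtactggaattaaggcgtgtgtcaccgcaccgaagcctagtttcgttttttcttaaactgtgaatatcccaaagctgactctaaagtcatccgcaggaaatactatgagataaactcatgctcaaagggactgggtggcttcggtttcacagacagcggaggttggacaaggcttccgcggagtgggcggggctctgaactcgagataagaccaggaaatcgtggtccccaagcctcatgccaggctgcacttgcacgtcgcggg
Pdcd1lg2 (chr19:29410669-29410968, plus strand): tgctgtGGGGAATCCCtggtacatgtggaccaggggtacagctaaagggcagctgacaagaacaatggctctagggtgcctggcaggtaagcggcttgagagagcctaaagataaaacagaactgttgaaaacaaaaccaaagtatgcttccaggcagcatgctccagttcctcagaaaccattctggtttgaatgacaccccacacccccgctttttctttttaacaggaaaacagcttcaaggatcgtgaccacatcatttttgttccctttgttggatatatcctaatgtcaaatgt
Cd200 (chr16:45409004-45409303, minus strand): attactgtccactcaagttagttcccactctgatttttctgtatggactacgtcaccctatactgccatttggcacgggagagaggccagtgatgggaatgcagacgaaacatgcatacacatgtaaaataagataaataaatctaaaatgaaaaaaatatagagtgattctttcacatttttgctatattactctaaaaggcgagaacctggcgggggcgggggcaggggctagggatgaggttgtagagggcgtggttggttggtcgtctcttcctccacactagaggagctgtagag
The kB match in the Pdcd1lg2 window ran from -244 to -235, counted from the start, and read on both strands. It is carried by 4.5% of the 32817 mouse windows of the same length. The windows of Cd274 and Cd200 held no match to the kB motif, the ISRE core, which is GAAA, 2 free bases and GAAA (3.4% of windows), GAS TTCNNNGAA (8.3%), AP-1 TGANTCA (7.8%) or the PU.1 core AGAGGAAG (4.6%), searched on both strands. The Icosl window held none either, and the Cd80 window held 1 AP-1 match, from -42 to -36. A match is a description of letters, and its absence says only that the letters are not in that window.

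Libraries held 12.75 to 13.54 M (1e6) counts in KO cells with LPS, 8.64 to 11.91 M in WT cells with LPS, 10.58 to 12.89 M in untreated KO cells and 8.98 to 11.76 M in untreated WT cells. Counts per 1e6 counts (CPM) below were scaled by TMM over the 12 libraries, and on that scale 3 reads, taken as the detection floor, were 0.186 to 0.449 CPM. Dot1l mRNA averaged 69.6 ± 4.06 CPM in KO and 65.7 ± 4.51 CPM in WT cells with LPS, and 90.0 ± 6.79 CPM in KO and 101 ± 16.4 CPM in WT untreated cells (SD, n = 3 each). Neither difference passed edgeR's quasi-likelihood test (adjusted p = 0.754 with LPS and 0.902 untreated), and since the removed exon is not given, a count over the whole transcript does not check the deletion. Lyz2, the gene that carries Cre in a widely used myeloid deleter strain, averaged 3133 ± 263 CPM in KO and 6999 ± 850 CPM in WT cells with LPS, and 2757 ± 237 CPM in KO and 6246 ± 835 CPM in WT untreated cells (SD, n = 3 each). Its ranges did not overlap in either condition. The macrophage genes Adgre1, Csf1r, Cd68 and Itgam were each at 711 CPM or more in every library. Others of the 13 macrophage markers were lower. Mertk had 64.4 to 247 CPM, Aif1 12.1 to 26.8 CPM, Marco 4.16 to 23.7 CPM and Cd163 3.18 to 15.0 CPM. The T and NK cell genes Cd3e, Cd3d and Cd3g and the B cell gene Pax5 were under 1 CPM in every library. Other genes of these lists were higher. Cd4 had 23.64 to 45.16 CPM and the B cell gene Cd79b 1.616 to 4.983 CPM over the 12 libraries. Lck, of the T and NK cell list, had 24.04 to 46.6 CPM with LPS and 0.281 to 0.9318 CPM untreated. WT replicate 1 lay farthest from its group mates in both conditions, at a root mean square log2 distance of 0.503 with LPS and 0.527 untreated, where the other libraries were at 0.299 to 0.468. Replicate 2 was male in all 4 groups, with Ddx3y at 94.1 to 106 CPM, so each genotype and condition held 1 male and 2 female libraries. In bulk RNA, a change in the share of cells that express a gene and a change in RNA per cell cannot be told apart.

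After 3 hours of LPS, macrophages of both genotypes carried far more mRNA for nearly all of these ligands. Of the 9 members, 8 had enough reads to be tested, and 7 of these rose and 1, Cd200r1, fell in KO as well as in WT cells. Over all 11984 genes tested, 61.2% passed the test in KO cells (30.3% higher, 30.9% lower) and 57.4% in WT cells (27.6% higher, 29.8% lower). CPM ranges of LPS-treated and untreated cells did not overlap for any of the 9 members in either genotype, although those of Pdcd1lg2, at 0 to 15 reads a library, did in both when library totals replaced TMM. With TMM, ranges did not overlap for 74.1% of all genes in KO cells (36.8% higher, 37.3% lower) and 57.8% in WT cells (27.6% higher, 30.2% lower). The median log2 change of the 8 members was 3.84 in KO and 3.42 in WT cells, beside -0.02 and -0.05 over all genes.

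**Figure D1:**
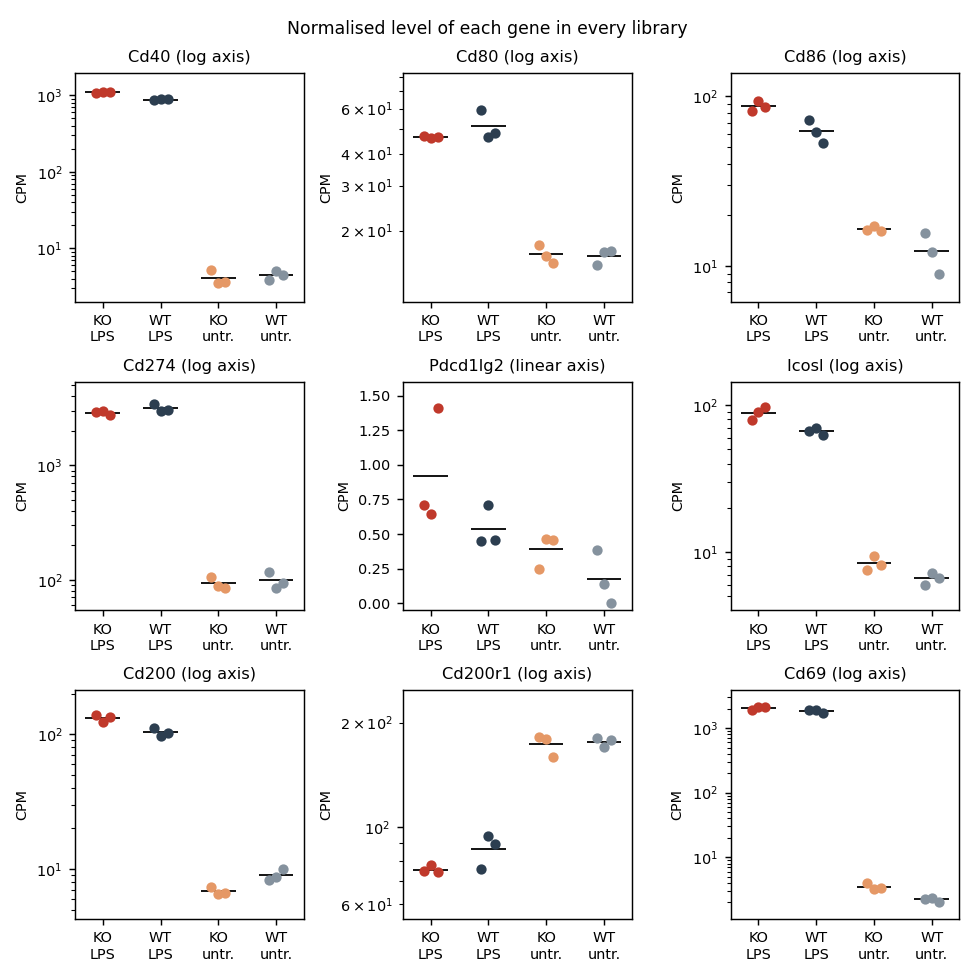
Level of each member in CPM (vertical axis, log scale except for Pdcd1lg2, which is linear) in every library of the 4 groups, with points for libraries and a line at the group mean. Within each genotype, LPS-treated libraries lie above untreated ones for every member but Cd200r1, which lies below, and Pdcd1lg2 stays at or under 1.41 CPM throughout.

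Among the costimulatory members, Cd40 responded most. In KO cells with LPS it had 1062, 1117 and 1109 CPM, against 5.16, 3.48 and 3.64 CPM in untreated KO cells. In WT cells with LPS it had 860, 890 and 887 CPM, against 3.87, 5.06 and 4.49 CPM in untreated WT cells. Treated and untreated libraries lay far apart, and the 3 KO libraries with LPS were above the 3 WT libraries with LPS. The log2 change was 8.05 ± 0.15 in KO cells (265-fold, adjusted p = 1.01e-13) and 7.60 ± 0.15 in WT cells (194-fold, adjusted p = 1.52e-13; edgeR, value ± SE, 3 libraries a group). The 5 RefSeq transcripts of Cd40 shared nearly all reads, the lowest holding 93.1% of the count of the highest, so its isoforms could not be told apart. Icosl, which encodes the ligand of ICOS, had 79.4, 90.1 and 96.6 CPM in KO cells with LPS, against 7.58, 9.43 and 8.18 CPM in untreated KO cells. WT cells had 66.7, 70.4 and 62.6 CPM with LPS, against 6.00, 7.17 and 6.63 CPM untreated. Icosl rose 10.6-fold in KO (log2 3.40 ± 0.11, adjusted p = 1.21e-11) and 10.0-fold in WT cells (3.33 ± 0.12, adjusted p = 2.50e-11).

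The CD28 and CTLA-4 ligands Cd86 and Cd80 rose less. Cd86 had 81.6, 93.8 and 86.4 CPM in KO cells with LPS, against 16.2, 17.1 and 16.1 CPM in untreated KO cells. In WT cells it had 72.2, 61.6 and 53.2 CPM with LPS, against 15.7, 12.2 and 8.99 CPM untreated. KO libraries were tightly grouped in both conditions, while WT libraries spread widely and replicate 1 was the highest of the 3. The change of Cd86 was 5.30-fold in KO (log2 2.41 ± 0.16, adjusted p = 1.08e-08) and 5.11-fold in WT cells (2.35 ± 0.16, adjusted p = 2.46e-08). Cd80 had 46.8, 46.0 and 46.3 CPM in KO cells with LPS, against 17.5, 15.9 and 14.9 CPM in untreated KO cells. Its WT values were 59.2, 46.3 and 48.2 CPM with LPS, against 14.7, 16.4 and 16.7 CPM untreated. It rose 2.87-fold in KO (log2 1.52 ± 0.11, adjusted p = 2.80e-08) and 3.20-fold in WT cells (1.68 ± 0.11, adjusted p = 1.38e-08), the smallest increase among the members tested.

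The PD-1 ligands went apart in level. Cd274 had 2907, 2974 and 2746 CPM in KO cells with LPS, against 105, 88.4 and 85.5 CPM in untreated KO cells. In WT cells it had 3432, 3005 and 3060 CPM with LPS, against 117, 84.8 and 93.9 CPM untreated. No other member had as many reads with LPS, and its change was 30.9-fold in KO (log2 4.95 ± 0.14, adjusted p = 2.18e-12) and 32.2-fold in WT cells (5.01 ± 0.14, adjusted p = 2.30e-12). Of its 3622 exon bases, 511 are also exon of the antisense gene AC119228.1, whose reads could be counted with it, since the strand setting of the counting is not given. Pdcd1lg2, its neighbour, was close to undetected, with 8, 7 and 15 reads in KO cells with LPS, 3, 7 and 4 reads in WT cells with LPS, 4, 6 and 7 reads in untreated KO cells and 4, 2 and 0 reads in untreated WT cells. Pooled per group, its CPM was 2.39 times as high with LPS as without in KO cells (exact binomial 95% interval 1.28 to 4.62) and 3.51 times as high in WT cells (1.27 to 11.1), intervals that cover counting error only. With library totals in place of TMM the ratio was 1.58 (0.85 to 3.06) in KO and 2.4 (0.87 to 7.63) in WT cells, and both intervals held 1. It did not pass the filter on low counts and was not tested.

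The CD200 pair moved in opposite directions. Cd200, the ligand, had 140, 123 and 135 CPM in KO cells with LPS, against 7.39, 6.49 and 6.62 CPM in untreated KO cells. In WT cells it had 110, 96.9 and 102 CPM with LPS, against 8.32, 8.71 and 10.0 CPM untreated. It rose 19.3-fold in KO (log2 4.27 ± 0.10, adjusted p = 7.25e-13) and 11.4-fold in WT cells (3.51 ± 0.10, adjusted p = 3.86e-12). Cd200r1, the receptor, had 74.5, 77.5 and 74.0 CPM in KO cells with LPS, against 182, 179 and 159 CPM in untreated KO cells. Its WT values were 75.8, 93.9 and 89.6 CPM with LPS, against 180, 170 and 178 CPM untreated. It fell to 0.435 of the untreated level in KO (log2 -1.20 ± 0.09, adjusted p = 3.90e-08) and to 0.492 in WT cells (-1.02 ± 0.09, adjusted p = 2.48e-07).

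Cd69 changed most of all. It had 1901, 2091 and 2082 CPM in KO cells with LPS, against 3.98, 3.25 and 3.31 CPM in untreated KO cells. WT cells had 1937, 1897 and 1735 CPM with LPS, against 2.22, 2.39 and 2.06 CPM untreated. The log2 change was 9.16 ± 0.13 in KO cells (573-fold, adjusted p = 8.04e-15) and 9.70 ± 0.13 in WT cells (830-fold, adjusted p = 6.12e-15). Its p was the smallest of all 11984 genes in both genotypes. TMM sets the median gene near 0, and without it, with library totals alone, the median of all genes shifted by -0.59 in KO and -0.55 in WT cells, a setting chosen after seeing the data. With library totals, 1777 genes were called higher and 7823 lower in KO cells, against 3633 and 3700 with TMM, and 1723 and 7621 in WT cells, against 3309 and 3567 with TMM. Members kept their direction and their call there, with Cd80 at 0.93 in KO and 1.13 in WT cells and Cd200r1 at -1.79 in KO and -1.58 in WT cells (log2). Marker sums of other cell types differed with LPS too. Monocyte markers summed to 338 to 342 CPM in KO cells with LPS and 101 to 135 CPM in untreated KO cells. Of the 8, 5 rose and 1 fell there, and Vcan alone had 230 to 243 CPM in KO cells with LPS and 2.14 to 2.36 CPM in untreated KO cells (log2 6.70 ± 0.15), while Ccr2 had 10.2 to 17.4 CPM with LPS and 34.4 to 51.9 CPM untreated. Dendritic cell markers summed to 292 to 342 CPM in KO cells with LPS and 164 to 213 CPM in untreated KO cells. Of 5 tested, 4 rose and 0 fell there, while Flt3, Clec9a and Siglech were under 1 CPM in all libraries. Among them Bst2 had 172 to 187 CPM in KO cells with LPS and 54.9 to 76.2 CPM in untreated KO cells, and Itgax overlapped, with 91.9 to 152 CPM with LPS and 106 to 132 CPM untreated. Stromal and endothelial markers summed to 130 to 152 CPM in KO cells with LPS and 23.3 to 30.4 CPM in untreated KO cells, of which Kdr had 119 to 138 CPM with LPS and 20.4 to 27.5 CPM untreated. Neutrophil markers summed to 107 to 131 CPM in KO cells with LPS and 48.7 to 52.2 CPM in untreated KO cells. Most of that sum was Csf3r, with 80.72 to 111.2 CPM with LPS and 32.15 to 39.41 CPM untreated. Ly6g, Elane and Cxcr2 of that list were under 1 CPM in every library. T and NK cell markers summed to 62.2 to 75.9 CPM in KO cells with LPS and 27.21 to 36.55 CPM in untreated KO cells. Mast cell, basophil and eosinophil markers were lower with LPS, at 17.2 to 19.8 CPM in KO cells against 24.3 to 32.8 CPM untreated. B cell sums overlapped. In WT cells the sums of these lists moved in the same directions. The part of these cell types in the members' changes was not tested.

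**Figure D2:**
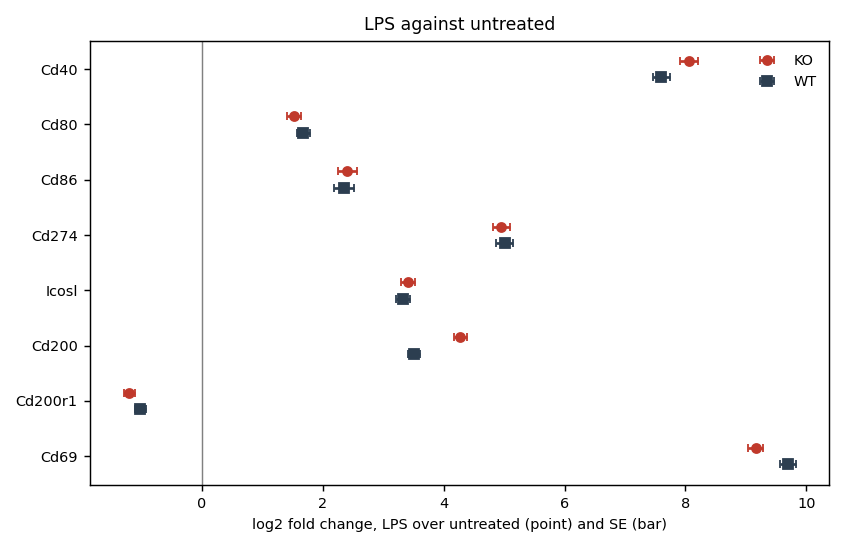
Log2 change with LPS over untreated (horizontal axis) of the 8 members tested, as points with SE bars, for KO and WT cells. Cd69 and Cd40 lie beyond 7 on the log2 scale in both genotypes, and Cd200r1 alone lies below 0.

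Levels can be ranked between genes on the authors' RPKM values, which divide by transcript length. With LPS, Cd69 led in both genotypes, at a mean of 924 RPKM in KO and 827 RPKM in WT cells, which placed it 39th and 40th of 11984 genes. Cd274 followed at 583 RPKM in KO and 626 RPKM in WT cells, then Cd40 at 454 RPKM in KO and 356 RPKM in WT cells. The remaining tested members lay between 17.5 and 41.8 RPKM. In KO cells the next were Cd200 at 41.8 RPKM, Cd200r1 at 29.5 RPKM, Cd86 at 25.4 RPKM, Icosl at 23.8 RPKM and Cd80 at 20.2 RPKM, and of these neighbours Cd86 and Icosl overlapped in range. In WT cells the order was Cd200r1 at 33.2 RPKM, Cd200 at 31.6 RPKM, Cd80 at 21.7 RPKM, Cd86 at 17.6 RPKM and Icosl at 17.5 RPKM, with overlap between the first 2 and between the last 2.

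Without LPS the order was another one. Cd200r1 led at 102 RPKM in KO and 98.4 RPKM in WT cells, followed by Cd274 at 28.4 RPKM in both genotypes and Cd80 at 10.6 RPKM in KO and 9.94 RPKM in WT cells. Cd86 had 7.21 RPKM in KO and 5.07 RPKM in WT cells. Cd200, Cd40, Icosl and Cd69 lay between 2.41 and 3.39 RPKM in KO cells, each overlapping its neighbour in range, and between 1.45 and 4.07 RPKM in WT cells. Pdcd1lg2 was last in every group, at 0.200 RPKM in KO and 0.114 RPKM in WT cells with LPS, and at 0.126 RPKM in KO and 0.0527 RPKM in WT untreated cells.

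Next, KO cells were set against WT cells among the LPS-treated libraries. Cd86, Icosl, Cd200 and Cd40 had higher CPM in every KO library than in every WT library, and Cd274 was lower in every KO library. The log2 differences were 0.48 ± 0.11 for Cd86 (adjusted p = 0.0742), 0.40 ± 0.10 for Icosl (adjusted p = 0.0753), 0.31 ± 0.08 for Cd40 (adjusted p = 0.0857) and 0.36 ± 0.09 for Cd200 (adjusted p = 0.0975). They correspond to 1.39-, 1.32-, 1.24- and 1.28-fold, and none passed edgeR's threshold of 0.05. Cd200r1 differed by -0.21 ± 0.09 (adjusted p = 0.353), Cd274 by -0.15 ± 0.08 (adjusted p = 0.466), Cd80 by -0.15 ± 0.11 (adjusted p = 0.566) and Cd69 by 0.12 ± 0.08 (adjusted p = 0.562). Pdcd1lg2 had 30 reads in KO and 14 in WT cells, a CPM ratio of 1.66 with a 95% interval of 0.85 to 3.38 for counting error.

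No member was called with edgeR, while 1.13% of the 11264 genes tested were (113 higher and 14 lower in KO). Of the 9 members, 5 did not overlap between genotypes (4 higher, 1 lower), where 20.3% of all genes did not (11.1% higher, 9.17% lower). At an unadjusted p under 0.05 stood 5 of 8 members (4 higher, 1 lower) and 13.8% of all genes, and the members' median was 0.21 on the log2 scale beside -0.01 over all genes. DESeq2 called 3 members, Cd40 (adjusted p = 0.0155), Cd86 (0.0203) and Icosl (0.0383), among 2.35% of all genes. The test without a filter on low counts called 2, Cd86 (0.0134) and Icosl (0.0298), among 1.74% of genes, and limma on RPKM called 0. With library totals, 1.41% of genes and 1 member, Cd86 (adjusted p = 0.0303), were called.

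WT replicate 1 bore on these calls. Without it, 5 members passed: Cd86 (0.59, adjusted p = 0.000696), Cd200 (0.41, adjusted p = 0.00545), Cd40 (0.29, adjusted p = 0.0123), Icosl (0.41, adjusted p = 0.0176) and Cd200r1 (-0.29, adjusted p = 0.0272). The number of genes called was 545 without it (4.76% of genes), against 127 with all 6 libraries. It was 55, 61 and 17 without KO replicates 1, 2 and 3 in turn, 20 without WT replicate 3, and 17 without the male replicate 2 of both genotypes, and no member was called in these. Library size was also lowest in WT replicate 1, at 8.64 M counts, and its part in the result was not tested.

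**Figure D3:**
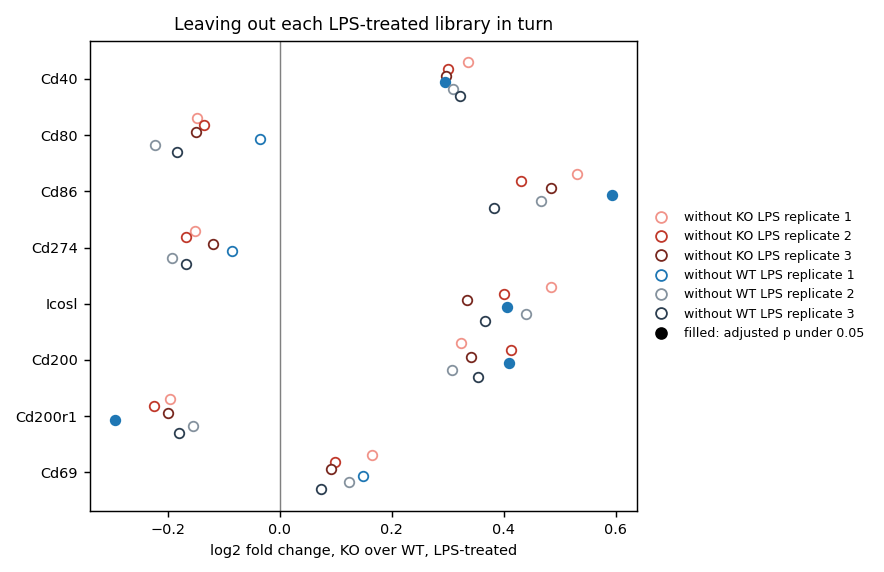
Log2 difference of KO over WT cells with LPS (horizontal axis) for each of the 8 members tested, recomputed without each of the 6 libraries in turn. Filled points, with adjusted p under 0.05, occur only without WT replicate 1, for Cd40, Cd86, Icosl, Cd200 and Cd200r1.

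Markers of other cell types were read beside these differences. Dendritic cell markers summed to 292 to 342 CPM in KO and 224 to 310 CPM in WT cells with LPS, and 6 of 6 tested of the 11 had positive differences (median log2 0.67), with 0 called. Flt3, Clec9a and Siglech of this list were under 1 CPM in every library. Xcr1 had 2.58 to 2.72 CPM in KO and 0.75 to 1.7 CPM in WT cells with LPS. Batf3 had 4.70 to 6.64 CPM in KO and 2.39 to 3.33 CPM in WT cells with LPS, while Itgax and Bst2 overlapped. DESeq2, the test without a filter and limma on RPKM each called 1 gene of the list higher in KO. Monocyte markers summed to 338 to 342 CPM in KO and 204 to 280 CPM in WT cells with LPS. Of 8 monocyte markers, 7 had positive differences and 2 were called, Fn1 (1.18 ± 0.11, adjusted p = 0.00143) and Vcan (0.51 ± 0.10, adjusted p = 0.0407). Fn1 passed in 14 of 14 alternatives and Vcan in 7 of 14 (adjusted p up to 0.229). Macrophage markers summed to 11640 to 13360 CPM in KO and 14960 to 18330 CPM in WT cells with LPS, Lyz2 included, and Lyz2 was the only one of 13 called (log2 -1.17 ± 0.10, adjusted p = 0.00143). Neutrophil markers summed to 107 to 131 CPM in KO and 93.9 to 151 CPM in WT cells with LPS, with 0 of 4 called. Stromal and endothelial markers summed to 130 to 152 CPM in KO and 92.5 to 129 CPM in WT cells with LPS, with 0 of 4 called and Col1a1, Col1a2, Col3a1, Pdgfra and Dcn under 1 CPM. Mast cell, basophil and eosinophil markers summed to 17.2 to 19.8 CPM in KO and 9.89 to 15.8 CPM in WT cells with LPS, with 1 of 2 called (Siglecf, 1.01 ± 0.18, adjusted p = 0.0307, which passed in 7 of 14 alternatives). T and NK cell markers summed to 62.2 to 75.9 CPM in KO and 48.0 to 61.1 CPM in WT cells with LPS. Of these, 1 of 2 tested was called, the kinase Lck (0.68 ± 0.12, adjusted p = 0.0279), which passed in 6 of 14 alternatives, while 8 of 10 stayed under 1 CPM. The calls of Vcan, Siglecf and Lck were each lost without any 1 of the KO libraries, WT replicate 2 or WT replicate 3. They were also lost with the replicate block, which here pairs KO and WT libraries of 1 number, a pairing not taken in the main analysis. The part of these cell types in the members' differences was not tested.

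Without LPS, no member was called between genotypes. Cd69 had a higher CPM in every KO than in every WT library, with a log2 difference of 0.68 ± 0.19 (1.58 times the WT mean, adjusted p = 0.398) at 64, 42 and 51 reads in KO and 23, 34 and 28 reads in WT cells. Cd86 (0.46 ± 0.19, adjusted p = 0.661) and Icosl (0.36 ± 0.15, adjusted p = 0.654) were also higher in every KO library, and Cd200 (-0.38 ± 0.14, adjusted p = 0.599) was lower in every KO library. Cd40 (-0.11 ± 0.21, adjusted p = 0.962), Cd274 (-0.06 ± 0.14, adjusted p = 0.967), Cd80 (0.04 ± 0.12, adjusted p = 0.980) and Cd200r1 (-0.001 ± 0.08, adjusted p = 1) overlapped between genotypes, and the signs of these 4 turned under at least 1 other setting. Pdcd1lg2 had 17 reads in KO and 6 in WT cells, a CPM ratio of 2.43 (95% interval 0.92 to 7.54, counting error only).

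In this condition edgeR called 0 of 11622 genes (0%). At an unadjusted p under 0.05 stood 841 genes (7.24%), and 4 of the 8 members tested (3 higher, 1 lower). Ranges did not overlap for 4 of 9 members (3 higher, 1 lower) and for 15.2% of all genes (6.76% higher, 8.48% lower). DESeq2 called 49 genes and no member. Without WT replicate 1, whose Cd86 level of 15.7 CPM was the highest of the WT libraries, 749 genes (6.34%) were called, and 1 member among them, Cd86 (0.66, adjusted p = 0.00752). Monocyte markers summed to 101 to 135 CPM in KO and 58.4 to 104 CPM in WT untreated cells, and dendritic cell markers to 164 to 213 CPM in KO and 130 to 219 CPM in WT untreated cells. Their part was not tested.

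**Figure D4:**
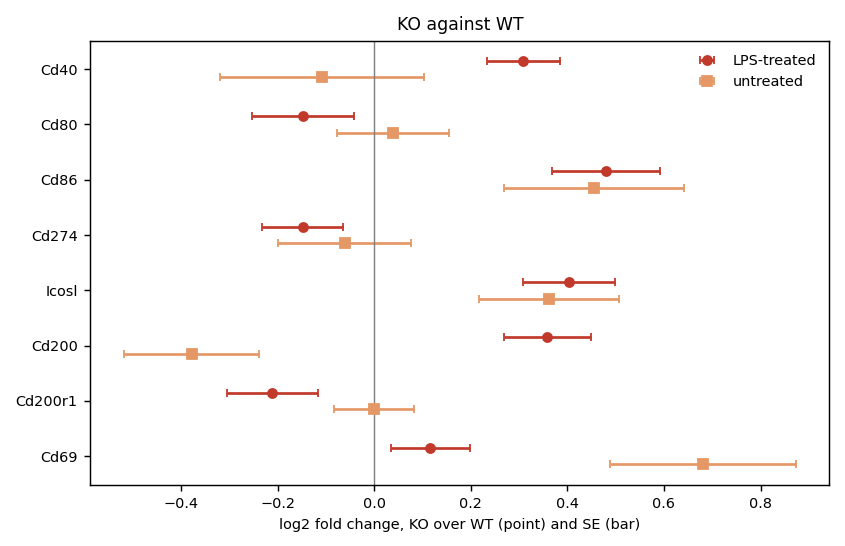
Log2 difference of KO over WT cells (horizontal axis) of the 8 members tested, as points with SE bars, with LPS and untreated. Cd86 and Icosl lie above 0 in both conditions, Cd200 lies at 0.36 with LPS and at -0.38 untreated, and no adjusted p was under 0.05.

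The difference between the genotypes' LPS responses was tested directly as an interaction over the 12 libraries. Cd200 had the smallest p of all 11984 genes, with a log2 interaction of 0.77 ± 0.14 (adjusted p = 1). It was higher in every KO than in every WT library with LPS and lower in every KO than in every WT library without. Cd69 differed by -0.53 ± 0.16 (adjusted p = 1) and ranked 24th by p, and Cd40 by 0.45 ± 0.18 (adjusted p = 1) and ranked 154th. The interaction was -0.18 ± 0.12 for Cd200r1, -0.16 ± 0.15 for Cd80, 0.08 ± 0.16 for Icosl, -0.06 ± 0.17 for Cd274 and 0.05 ± 0.22 for Cd86. The last 3 changed sign without single libraries. edgeR called 0 genes (0%), as did DESeq2 and limma on RPKM, while 288 genes (2.4%) and 3 of 8 members stood at an unadjusted p under 0.05. With the replicate number as a block, Cd200 was at 0.78 with an adjusted p of 0.058. That block assumes that treated and untreated libraries of 1 number are paired. Without single libraries Cd200 ranged from 0.65 to 0.82 (adjusted p from 0.103 to 1).

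Ratios within a library set paired genes side by side. They were chosen with the values known and are given as a description. Cd86 over Cd80, the 2 ligands of CD28, was 1.17, 1.36 and 1.25 in KO cells with LPS, and 0.817, 0.892 and 0.739 in WT cells with LPS (ratio of RPKM). Untreated, it was 0.620, 0.718 and 0.722 in KO cells and 0.713, 0.495 and 0.361 in WT cells. With LPS, Cd86 exceeded Cd80 in 3 of 3 KO libraries and in 0 of 3 WT libraries. Cd200 over Cd200r1 was 1.51, 1.28 and 1.47 in KO cells with LPS, and 1.17, 0.830 and 0.914 in WT cells with LPS. Untreated, it was 0.0327, 0.0292 and 0.0336 in KO cells and 0.0371, 0.0413 and 0.0454 in WT cells. The groups did not overlap in either condition, and KO was the higher with LPS and the lower without.

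**Figure D5:**
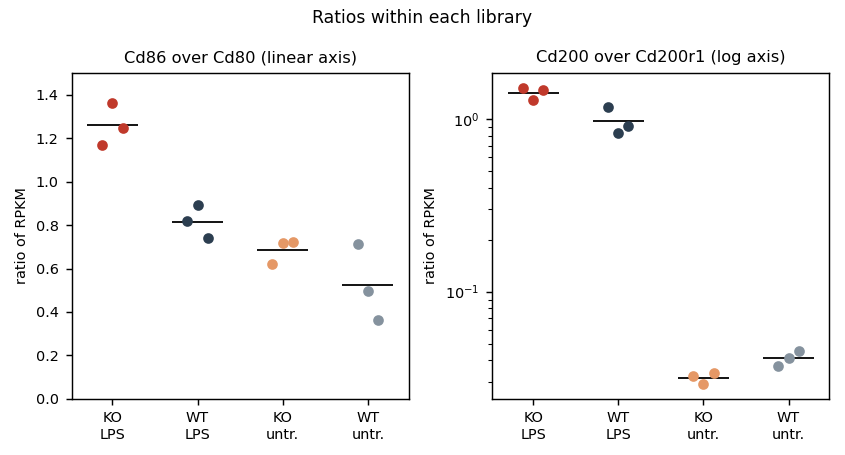
Ratio of RPKM within each library for Cd86 over Cd80 (linear axis) and Cd200 over Cd200r1 (log axis), with points for libraries and a line at the mean of each of the 4 groups. With LPS the 3 KO libraries exceed the 3 WT libraries in both ratios.

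Related genes were read from lists. Of 11 TNF superfamily costimulatory ligands, 9 were tested, and 7 rose in KO and 6 in WT cells with LPS, with 0 falling in either. Tnfsf13, the gene of APRIL, at -0.30 in KO and -0.13 in WT cells (adjusted p = 0.0968 and 0.469), was called lower in KO cells with the replicate block (7 higher, 1 lower) and in a fit of the 6 KO libraries. It was also lower in both genotypes with library totals (-0.89 in KO and -0.68 in WT cells, 6 higher and 1 lower in each) and with limma on RPKM. The OX40 ligand gene Tnfsf4 rose by 7.71 ± 0.18 in KO (adjusted p = 6.25e-13) and 7.05 ± 0.19 in WT cells (adjusted p = 1.96e-12) on the log2 scale. Tnfsf10, which encodes TRAIL, rose by 6.69 ± 0.22 in KO and 7.04 ± 0.23 in WT cells, and Tnfsf15 by 8.04 ± 0.34 in KO and 8.21 ± 0.35 in WT cells (adjusted p from 9.20e-12 to 1.49e-10). With LPS, Tnfsf4 was also the only gene of the list called between genotypes, higher in KO by 0.83 ± 0.12 (adjusted p = 0.00874). That call was lost with limma on RPKM, without KO replicate 3 and without replicate 2 of both genotypes (adjusted p up to 0.101). Of 8 other B7 and butyrophilin-like ligands, 7 had a row and 2 were tested. Vsir, which encodes the inhibitory ligand VISTA, fell with LPS by 0.91 in KO (adjusted p = 9.29e-05) and by 0.69 in WT cells (adjusted p = 0.00102). Cd276 fell by 0.66 in KO cells (adjusted p = 0.0175), a call lost without KO LPS replicate 1 or 3 (adjusted p up to 0.072). It was not called in WT cells in the main fit. With library totals and with limma on RPKM, both tested genes of the list were called lower in WT cells. Between genotypes with LPS, 0 of 2 were called.

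Receptors of these ligands are mostly lymphocyte genes, and 7 of 15 were tested with LPS, while Cd40lg and Tigit had no read in any library. In KO cells 4 rose and 3 fell, and in WT cells 3 rose and 3 fell. S1pr1, the receptor that CD69 draws from the surface, fell by 3.69 ± 0.28 in KO (adjusted p = 5.68e-08) and by 4.0 ± 0.30 in WT cells (adjusted p = 5.69e-08). Cd28 fell by 1.74 in KO and by 1.67 in WT cells (adjusted p = 1.33e-08 and 2.45e-08), and Havcr2, which encodes TIM-3, fell by 0.99 in WT cells (adjusted p = 4.73e-07). The 4-1BB gene Tnfrsf9 rose by 4.95 ± 0.42 in KO cells (adjusted p = 1.82e-07). With LPS it was higher in KO than in WT cells by 1.55 ± 0.32 (adjusted p = 0.0473), 1 of 7 called, and it passed in 6 of 14 alternatives. The fall of Havcr2 and the rise of Tnfrsf9 are named for 1 genotype because only there their p was among the 3 smallest. In the interaction, 0 of 7 were called.

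Of 17 other inhibitory ligands and myeloid inhibitory receptors tested of 18, 10 rose and 4 fell with LPS in each genotype. Pvr rose by 2.41 in KO and 2.34 in WT cells, and Nectin2 by 3.92 in KO and 3.70 in WT cells (adjusted p from 5.43e-11 to 3.91e-10). Cd47, the "do not eat me" ligand, rose by 1.59 in KO cells (adjusted p = 3.41e-09), and the inhibitory receptor gene Cd300a fell by 1.48 in WT cells (adjusted p = 6.05e-09). Each is named for 1 genotype because only there its p was among the 3 smallest, and 0 of 17 were called in the interaction. With library totals in place of TMM the counts were 7 higher and 8 lower in KO and 7 higher and 7 lower in WT cells. Between genotypes with LPS, 1 of 17 was called, Cd24a, the gene of the SIGLEC ligand CD24, at 1.17 ± 0.17 (adjusted p = 0.00874). It was not called without KO replicate 3, without WT replicate 3 or without replicate 2 of both genotypes (adjusted p up to 0.0948).

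Several genes linked to the CD200 receptor fell with LPS as well. Of 7 genes of its family and adaptors, 2 rose and 5 fell in KO cells with LPS, and 2 rose and 4 fell in WT cells. Inpp5d, the inositol phosphatase SHIP1, fell by 1.99 in KO (adjusted p = 1.71e-10) and by 1.84 in WT cells (adjusted p = 4.46e-10). Dok2, an adaptor of CD200R1, fell by 1.16 in KO (adjusted p = 1.83e-06) and by 0.94 in WT cells (adjusted p = 1.78e-05). Cd200r4, a related receptor gene, was at 0.47 in KO and 0.44 in WT cells (adjusted p = 2.31e-05 and 4.66e-05), but at -0.13 in KO and -0.11 in WT cells with library totals, where 0 of 7 were called higher in either genotype. Between genotypes with LPS, 0 of 5 tested were called, and Cd200r4 was at -0.12 ± 0.07 (adjusted p = 0.493).

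Of 13 genes of CD40 signalling, 10 rose and 1 fell in KO cells with LPS, and 10 rose and 2 fell in WT cells. The adaptor gene Traf1 rose by 5.18 in KO and 4.82 in WT cells, the NF-kB inhibitor gene Tnfaip3 by 4.78 in KO and 4.21 in WT cells, and the NF-kB subunit gene Nfkb2 by 3.60 in KO and 3.44 in WT cells (adjusted p from 2.74e-12 to 1.05e-11). Of 17 transcription factors tested of 18, 13 rose and 2 fell in each genotype. Irf1 rose by 5.10 in KO and 5.56 in WT cells, Irf8 by 3.14 in KO and 3.24 in WT cells, and Nfkb1 by 2.71 in KO and 2.72 in WT cells (adjusted p from 4.39e-13 to 1.03e-11). Between genotypes with LPS, 0 of the 13 and 0 of the 17 were called with edgeR. Tnfaip3 was at 0.07 ± 0.08 (adjusted p = 0.759) and Irf1 at 0.01 ± 0.08 (adjusted p = 0.979). DESeq2 called 0 of the 13 and 1 of the 17.

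Without LPS, 0 genes of these 7 lists were called between genotypes with edgeR, where 0% of all genes were. DESeq2, the test without a filter and the fit of all 12 libraries each called 1, Cd24a (1.15 to 1.17, adjusted p from 1.05e-06 to 0.0287). Without WT replicate 1, where 6.34% of all genes were called, 10 were called (7 higher and 3 lower in KO). The 7 lists then held 2, 9, 4, 17, 7, 13 and 18 tested genes. Among the 10 called were Vsir (0.37, adjusted p = 0.0105), Irf1 (0.55, 0.0132), Tnfaip3 (-0.61, 9.77e-05) and Lgals3 (-0.19, 0.029). With all 6 libraries, the most expressed genes of the lists were at -0.44 ± 0.21 (Tnfsf9), 0.25 ± 0.12 (Vsir), -0.08 ± 0.11 (Lgals3), -0.12 ± 0.08 (Cd200r4), -0.46 ± 0.14 (Tnfaip3), 0.50 ± 0.12 (Irf1) and -0.02 ± 0.12 (Cd28), the last of which changed sign with library totals. In the interaction 0 genes of the lists were called as well.

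For each tested member, the 3 genes with the most similar profile over the 12 libraries were taken by the root mean square difference of centred log2 CPM among 9504 genes. Cd69 was closest to the chemokine gene Ccl5 (0.232), then Serpina3g (0.257) and Socs3 (0.322). Cd40 was closest to Socs1 (0.337) and to the interferon-stimulated genes Rsad2 (0.394) and Ifit1 (0.439). The nearest to Cd274 were the NF-kB inhibitor gene Nfkbia (0.223), Traf1 (0.223) and the RNA sensor gene Ifih1 (0.246). Cd200 was nearest to Sod2 (0.146), which encodes mitochondrial superoxide dismutase, then Batf (0.178) and Cemip2 (0.182), and Cd86 to the Fc receptor gene Fcgr4 (0.099), Hmgn3 (0.142) and Tent5a (0.158). Icosl was nearest to Glipr2 (0.16), Pnp (0.166) and Gca (0.169). Cd80 was nearest to Ddx19b (0.096), Septin11 (0.101) and Dock10 (0.101), and Cd200r1 to Gtf2i (0.074), the insulin receptor gene Insr (0.078) and Zfp655 (0.081). This distance is not scaled to the size of a gene's change and can grow with it. The closest neighbours of the strongly induced Cd40, Cd69 and Cd274 were farther away than those of Cd80, Cd86 and Cd200r1. No trait of these genes is read from that.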

How the data were processed

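The deposited tables hold whole-number read counts per RefSeq transcript and, separately, RPKM values, which the authors divided by transcript length and library total. Per the submitters' processing notes, reads were handled with STAR 2.5.2b and SAMtools 1.3.1 on mm10, while neither the counting tool nor its strand setting or annotation is given in the sources used here. Per the labels' protocols, libraries were made with an mRNA kit and sequenced single-end.

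The 35745 transcripts were named from RefSeq GRCm38.p6, the assembly of mm10 (35440), or GENCODE (188). The other 117, with 0.259% to 0.738% of the counts, were left out. Per gene, the transcript with most counts was kept (24445 genes). edgeR 4.0.16 was used with TMM, filterByExpr, the robust quasi-likelihood F test and Benjamini-Hochberg over all genes, threshold 0.05 (limma 3.58.1, R 4.3.3). It was fitted on 6 libraries for each genotype comparison and on 12 libraries as 4 groups for LPS and the interaction. The code was also run on simulated counts of even spread. The changes put in there were larger than the members' genotype differences, so the run does not check differences of that size. Adjusted p are edgeR's unless another tool is named. The SE is the log2 change over the square root of F. With 3 libraries against 3, an exact permutation test cannot give a p under 0.1 and was not used. DESeq2 1.42.0, RLE scaling, no filter, the replicate block, limma on log2(RPKM + 0.1), other sets of libraries and library totals were tried as alternatives. The block pairs KO and WT libraries of 1 number in the genotype comparisons, and treated and untreated ones elsewhere.

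The main LPS and interaction fits did not pair libraries. Only in the replicate block were treated and untreated libraries of 1 number taken as pairs, from the data. Their deviations from the group means correlated at 0.20 to 0.57 in all 6 pairs, each above the best other number. In KO cells the margin was narrow for replicate 1 (0.25 against 0.13) and replicate 3 (0.20 against 0.15). The block changed no call of a member in the LPS comparisons. In the interaction it lowered the adjusted p of Cd200 to 0.058, which is still above the threshold.

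The text names all members, and per list and comparison up to 3 called genes by smallest p, or the one with the highest RPKM where none passed. Marker genes named for their level only describe the cells. Members and lists were chosen with earlier results of these data known.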

Additional observations from a re-analysis of the deposited data

Results flagged for a closer look

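Cd200 had genotype differences of opposite sign under the 2 conditions, neither of which passed edgeR's threshold. The KO libraries were above the WT libraries with LPS and below them without. Its genotype by LPS interaction came to 0.767 on the log2 scale. The interaction itself was tested with edgeR and gave an unadjusted p of 9.75e-05 and an adjusted p of 1 over 11984 genes. In that test 2.4% of all genes had an unadjusted p under 0.05. All 3 KO libraries were higher than the 3 WT libraries with LPS, as for 11.1% of all genes. All 3 were lower without it, as for 8.48% of all genes. The untreated values rest on 119, 84 and 102 reads in KO cells and 86, 124 and 136 reads in WT cells.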

How the results depend on the processing

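The LPS changes of the 8 tested members kept their direction and their side of the threshold in all 14 alternatives in each genotype, and so did the interaction counts (0) in 19. Over 600 alternative values of single members, 571 kept direction and side, 12 newly passed the threshold and 17 changed sign. Between genotypes with LPS, the 127 genes called became 265 with DESeq2, 276 without the filter and 47 with the replicate block. They became 17 to 545 without single libraries or replicate 2. Numbers were not taken to pair the genotypes in the main analysis, while the block of the genotype comparisons does so. Correlations at the same number were -0.03, 0.19 and 0.12 with LPS and 0.05, 0.18 and 0.26 untreated. The best other number gave 0.16, -0.01 and 0.04 with LPS and 0.14, 0.08 and -0.03 untreated. Only for replicate 1 was the same number the lower, in both conditions. Members called, 0 in the main analysis, were 3 with DESeq2, 2 without the filter, 1 with library totals (Cd86, adjusted p = 0.0303), 0 with the block and 0 to 5 without single libraries. Untreated, the 0 genes called became 49 with DESeq2, 9 without the filter, 27 in a fit of all 12 libraries, 1 with library totals and 0 to 749 without single libraries, and members called 0 to 1. The cause was not tested.

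Signs that changed were of values close to 0. Untreated, Cd200r1 came to 0.001 without the filter, 0.048 with RPKM and 0.037 with library totals, and ranged from -0.046 to 0.051 without single libraries. Cd40 came to 0.091 without replicate 2. Without single libraries, untreated Cd80 ranged from -0.033 to 0.085 and Cd274 from -0.165 to 0.082. In the interaction, Cd86 ranged from -0.177 to 0.21 without single libraries, Cd274 from -0.227 to 0.016 and Icosl from -0.018 to 0.15. WT untreated replicate 1 gave the lowest value of both Cd86 and Cd274 there.

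Pdcd1lg2, at 0 to 15 reads a library, is limited by depth, and no difference between genotypes was detectable for it.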
